A study of Mus musculus with 73 samples.

Results

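Impact and Plagl1 are imprinted genes expressed from the paternal allele, and they were taken by name from a table of 30546 genes, so the account covers 2 genes of 30546. Each was followed across 12 groups of mouse tissue at E6.5, made up of 6 genotype and cross combinations in epiblast and in extraembryonic ectoderm (ExE), the trophoblast tissue that lies next to the epiblast. The measure was the number of RNA-seq reads over polymorphisms that tell the BDF1 genome (a hybrid of C57BL/6 and DBA) from the CAST genome, so that each read could be assigned to a parent. In cross names the mother stands first. Wild-type BDF1xCAST embryos (7 in each tissue) carried a BDF1 maternal and a CAST paternal genome. Wild-type CASTxBDF1 embryos (4 in each tissue) carried the reverse. The 4 knockout groups were all BDF1xCAST and disrupted Dnmt1, the maintenance DNA methyltransferase (3 epiblast and 3 ExE libraries), both Ehmt1 (Glp) and Ehmt2 (G9a), whose products methylate histone H3 (G9a-Glp, 6 and 8), Rnf2, the ubiquitin ligase of Polycomb repressive complex 1 (6 and 5), or Eed, a core subunit of Polycomb repressive complex 2 (9 and 10). All BDF1xCAST embryos came from sperm injection into oocytes and were carried by CD-1 foster females, whereas CASTxBDF1 embryos came from natural mating, so cross direction and mode of conception cannot be told apart. Genes were disrupted in the zygote with Cas9 and several guide RNAs each, which can leave mosaic embryos, and each library came from the tissue of 1 embryo.

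Imprinted genes keep a difference in DNA methylation that was set in the egg or the sperm. At Impact and at Plagl1 a differentially methylated region (DMR) is methylated in the egg, the maternal copy is silent, and DNMT1 copies the methylation at each cell division while the zinc finger protein ZFP57 binds the methylated copy and helps to protect it. Impact encodes a protein that binds GCN1 and restrains the kinase GCN2, which phosphorylates the translation factor eIF2 when amino acids are scarce. Plagl1 (also Zac1) encodes a zinc finger transcription factor that restrains growth and acts on other imprinted genes.

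The germline DMR of Plagl1 lies over its promoter, and the stretch just before the gene is shown because the maternal reads described below come from an allele that is normally methylated there. Plagl1 occupies chromosome 10, 13090788 to 13131694 (mm10), in the deposited table. The 206 bases from 13090582 to 13090787 on the plus strand, from the RefSeq promoter table of GRCm38.p6, lie before both that start and the RefSeq start at 13090832. Capitals mark a match to TGCCGC, the core of the ZFP57 motif, searched on both strands and read here on the minus strand as GCGGCA.
Plagl1: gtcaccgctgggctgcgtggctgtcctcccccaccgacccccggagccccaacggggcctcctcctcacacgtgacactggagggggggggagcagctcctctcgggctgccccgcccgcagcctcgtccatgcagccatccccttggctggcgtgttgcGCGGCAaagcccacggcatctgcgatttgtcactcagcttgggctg
The stretch holds 15 CpG dinucleotides and 1 match to the motif. The full 300-base window of the table holds 26 CpG, against a median of 7 over 32851 promoter windows of that length, and 16.9% of windows hold as many. The motif occurs in 11.6% of the windows, so its presence alone does not set this promoter apart.

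Impact occupies chromosome 18, 12962942 to 12992950, in the same table and overlaps no other gene there. Plagl1 overlaps Hymai (13090845 to 13095900), a noncoding gene in which 6 reads were counted over all 72 libraries. How reads over both genes were assigned is not given in the sources used here. Library depth was 1141414 to 3976031 reads over polymorphisms outside the Rnf2 groups, and up to 17653087 in Rnf2 epiblast and 10263280 in Rnf2 ExE. The mRNA of the targeted gene was below every wild-type library in all Eed libraries (9 of 9 and 10 of 10) and in 3 of 3 Dnmt1 epiblast libraries. It was below in 4 of 6 for Rnf2 epiblast, in 2 of 3 for the libraries labelled Dnmt1 ExE and in 0 of 5 for those labelled Rnf2 ExE. For G9a-Glp, Ehmt1 was below in 2 of 6 libraries labelled epiblast and 5 of 8 labelled ExE, and Ehmt2 in 0 of 6 and 6 of 8. Reads per gene are given as CPM, counts scaled to 1000000 reads of the library, and fold changes as log2 with the standard error (SE) of edgeR's quasi-likelihood test, whose p-values were adjusted over every gene in the test and called under 0.05. All knockouts were compared with the same 7 wild-type BDF1xCAST libraries of their tissue, so the comparisons share their controls.

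In wild-type epiblast Impact was read almost entirely from the paternal allele in both crosses. The 7 BDF1xCAST libraries had a maternal share between 1.52% and 5.46% with a median of 3.84%, and 78 of 2303 reads were maternal (3.39%, exact binomial 95% interval 2.69 to 4.21). The 4 CASTxBDF1 libraries had 1.15%, 5.91%, 2.5% and 0% in embryos 1 to 4. The paternal allele therefore dominated whether it was CAST or BDF1. The parental term, which separates parent of origin from strain over the crosses, was -5.11 ± 0.22 (SE, log2 maternal over paternal, edgeR adjusted p = 2.57e-10). Of the 8469 genes tested in epiblast, 0.272% were called imprinted by this term together with a mean maternal share of at most 30% or at least 70% in both crosses, and Impact was 1 of them. Intervals cover counting error only, since reads without molecular identifiers are not independent molecules.

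In wild-type ExE a larger share of Impact reads was maternal and the gene was read at a lower level. The BDF1xCAST maternal share ran from 6.03% to 25.9% with a median of 15.6%, and the lowest of these libraries lay above the highest of epiblast. In CASTxBDF1 ExE, embryos 1 to 4 had 23.2%, 24.7%, 41.2% and 15.8%, again all above epiblast of the same cross. The parental term was -2.15 ± 0.22 (SE, edgeR adjusted p = 3.16e-07), and Impact was among the 0.497% of 8654 genes called imprinted in ExE. Only 0.291% of genes differed between the wild-type tissues in their parental ratio, and Impact was 1 of them, with a difference in the log2 ratio of 2.96 ± 0.38 (SE, ExE minus epiblast, edgeR adjusted p = 4.69e-05).

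In the BDF1xCAST wild type the tissues differed mainly in the paternal allele. Total Impact stood at 138 ± 11.2 CPM (SD, n = 7) in BDF1xCAST epiblast and at 25.8 ± 14.0 CPM (n = 7) in ExE, a log2 difference of -2.35 ± 0.30 (SE, edgeR adjusted p = 2.44e-06), in a comparison that called 56.6% of all genes. Paternal reads fell by 2.48 on the log2 scale in ExE (SE 0.31, edgeR adjusted p = 8.98e-07), where 49.5% of genes passed. Maternal reads were 4.71 ± 1.70 CPM in epiblast and 3.03 ± 0.95 CPM in ExE, and the difference of -0.59 ± 0.35 did not pass (edgeR adjusted p = 0.171). The ExE library with the lowest paternal level, embryo 6 at 6.67 CPM, had the highest share, with 7 maternal reads of 27. The summed level of 12 decidua and blood markers was 0.667 to 1.86 CPM in these ExE libraries with 8 of the 12 at 0, against 7.12 to 34.3 CPM in epiblast; its part in the share was not tested. In the CASTxBDF1 wild type, paternal reads were also lower in ExE, at 14.1 ± 2.7 CPM against 103 ± 39.0 in epiblast (SD, n = 4). Maternal reads went the other way from BDF1xCAST, at 4.98 ± 2.1 CPM in ExE against 2.45 ± 2.2 in epiblast. Reads of each allele were not tested in that cross. The tests of this paragraph had no term for the embryo, although both tissues came from the same embryos. In 5 alternative fits of the total, an embryo block among them, the call was kept (edgeR or DESeq2 adjusted p at most 6.98e-06). Reads of each allele were not fitted with such a block. In bulk tissue, fewer cells that express a gene and less RNA per cell cannot be told apart.

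**Figure D1:**
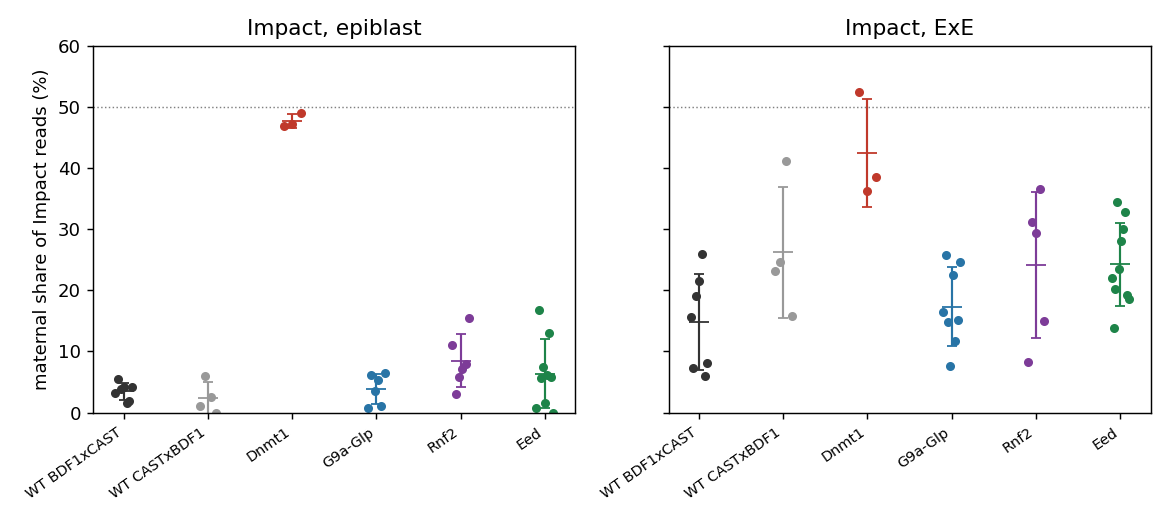
Maternal share of Impact reads (%, vertical axis) in every library, by genotype and cross, with epiblast on the left and ExE on the right. Points are libraries, the bar is the group mean with SD, and the dotted line marks equal reads from both alleles. The 3 Dnmt1 epiblast libraries lie between 46.8% and 49.0%, far above the 1.52% to 5.46% of the BDF1xCAST wild type, while in ExE the other 5 groups lie higher than in epiblast and the 3 Dnmt1 libraries spread from 36.3% to 52.5%.

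Plagl1 was near the limit of detection in the wild type. Its level was 2.48 ± 1.58 CPM (SD, n = 7) in BDF1xCAST epiblast, 1.78 ± 1.70 (n = 4) in CASTxBDF1 epiblast, 1.07 ± 1.32 (n = 7) in BDF1xCAST ExE and 1.60 ± 1.85 (n = 4) in CASTxBDF1 ExE. Each of these groups overlapped with the next, and the difference between the tissues of -1.05 ± 0.69 did not pass without the filter on low counts (SE, edgeR adjusted p = 0.217). The few reads were mostly paternal. In epiblast 7 of 38 BDF1xCAST reads were maternal (18.4%, exact 95% interval 7.74 to 34.3), and 6 of these 7 came from embryos 4 and 8. No maternal read was seen among 18 reads in CASTxBDF1 epiblast, which allows a share of up to 18.5% by the exact interval, or among 22 reads in CASTxBDF1 ExE, which allows up to 15.4%. In BDF1xCAST ExE, 2 of 22 reads were maternal, both in embryo 2. Too few libraries reached 10 reads for the main test. Without the filter on low reads, the parental term was -3.56 ± 0.99 in epiblast and -3.97 ± 1.13 in ExE (SE, edgeR adjusted p = 0.17 and 0.0514), which did not pass, so Plagl1 could not be called imprinted from these reads.

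Loss of Dnmt1 brought the maternal Impact allele up to the level of the paternal one in epiblast. Maternal shares were 46.8%, 47.2% and 49.0% in Dnmt1 replicates 1 to 3, each above every wild-type library. The log2 ratio rose by 4.68 ± 0.25 (SE, edgeR adjusted p = 6.72e-13), in a comparison that called 1.01% of genes. The alleles moved in opposite directions. Maternal reads were 68.9, 72.7 and 78.5 CPM against 2.37 to 6.60 CPM in the wild type, a rise of 3.74 ± 0.30 (SE, edgeR adjusted p = 4.65e-06, 9.75% of genes called), which is 13.4-fold. Paternal reads were 78.3, 81.5 and 81.9 CPM against 114 to 154 CPM, and they fell by 0.94 (SE 0.20, edgeR adjusted p = 0.00639, 9.43% called). The groups did not overlap for either allele. The total was 147, 154 and 160 CPM in the replicates, or 154 ± 6.58 CPM (SD, n = 3) against 138 ± 11.2 (n = 7), and its difference of -0.06 ± 0.16 did not pass (SE, edgeR adjusted p = 0.862, 95% interval -0.37 to 0.26, 14.1% of genes called), so no change in the sum of the alleles was detected. The mean in CPM, scaled to the library total, was above the wild type while the fitted difference, scaled by TMM, was slightly below 0, so no direction is given for the total.

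For Impact in the libraries labelled Dnmt1 ExE the maternal share was 52.5%, 36.3% and 38.6% in replicates 1 to 3, again above every wild-type library (highest 25.9%). The log2 ratio rose by 2.29 ± 0.40 (SE, edgeR adjusted p = 0.00176, 0.973% of genes called), and the limma alternative gave an adjusted p of 0.0575. Maternal reads were 15.8, 28.7 and 18.9 CPM against 2.15 to 4.12 CPM, a rise of 2.52 ± 0.33 (SE, edgeR adjusted p = 0.000364, 13.3% called). Paternal reads were 14.3, 50.3 and 30.1 CPM, within the wild-type range but for replicate 2, and the difference of 0.17 ± 0.50 did not pass (edgeR adjusted p = 0.863). The total of 52.7 ± 24.6 CPM (SD, n = 3) against 25.8 ± 14.0 (n = 7) did not pass either (0.73 ± 0.44, edgeR adjusted p = 0.276, 18.5% of genes called). Dnmt1 mRNA stood at 47.9, 34.5 and 5.16 CPM in these replicates against a lowest wild-type value of 35.7 CPM, so replicate 1, with the highest Impact share, was the library in which the targeted mRNA was not below the wild type. Without that replicate the log2 ratio rose by 2.05 (edgeR adjusted p = 0.0226).

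The rise of the maternal ratio was smaller in ExE than in epiblast by 2.38 on the log2 scale, a difference of -2.38 ± 0.49 (SE) whose unadjusted p was 2.98e-05 and whose adjusted p of 0.179 did not pass. That comparison called 0.0% of 6405 genes with edgeR, 328 genes had an unadjusted p under 0.05, and limma called 1. Epiblast and ExE came from the same embryos, and with the embryo as a replicate block the same difference was -2.44 with an adjusted p of 0.0312, which passed. The wild-type share was lower in epiblast than in ExE, and the Dnmt1 shares overlapped between the tissues.

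**Figure D2:**
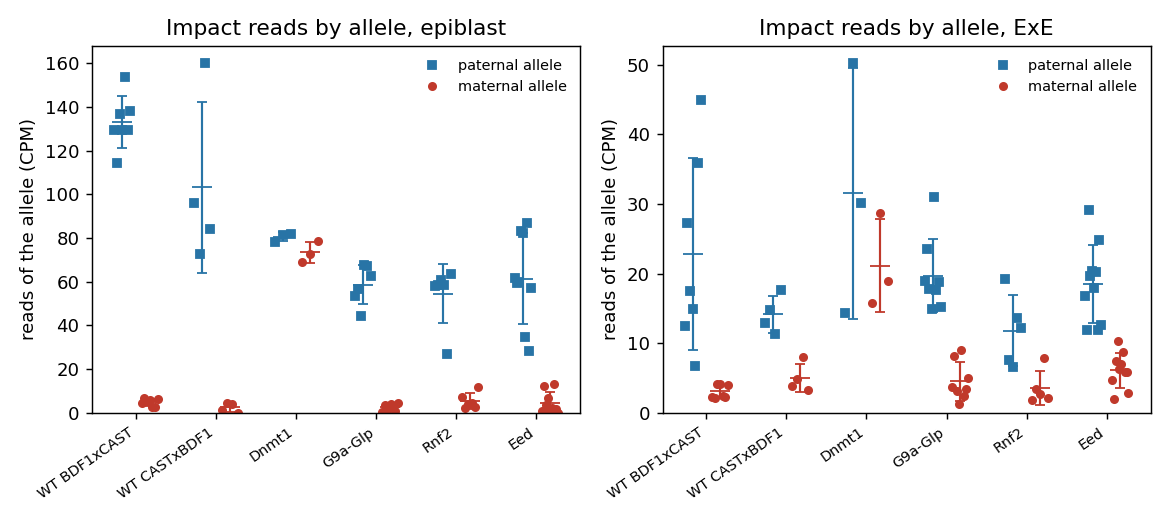
Impact reads assigned to the paternal allele (blue squares) and to the maternal allele (red circles) in CPM, per library, with group mean and SD, for epiblast (left) and ExE (right, with its own scale). In Dnmt1 epiblast the alleles meet near 73.4 and 80.6 CPM on average, and in G9a-Glp, Rnf2 and Eed epiblast the paternal squares sit between 27.0 and 86.9 CPM, below the 114 to 154 CPM of the BDF1xCAST wild type.

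The other genes with a maternal germline DMR give the setting for Impact. A list of 20 names, of which 17 were in the table, holds genes of such regions that are expressed from the paternal allele. Nespas is 1 of them, but its reads were 95% maternal in wild-type BDF1xCAST epiblast; it overlaps a maternally expressed gene on the other strand, and no strand is stated for the counts, so reads of the pair cannot be told apart. In Dnmt1 epiblast, 7 of 9 that could be tested rose in maternal ratio and none fell, where 1.01% of all genes were called, with a median log2 change of 4.93 against -0.01 over all genes. Peg3, a zinc finger gene, rose by 7.92 ± 0.42, Snrpn-Snurf, which encodes a splicing protein, by 7.73 ± 0.34, and Magel2, a gene of the Prader-Willi region, by 7.01 ± 0.95 (SE, edgeR adjusted p = 2.78e-06, 1.05e-12 and 0.000143). In the libraries labelled Dnmt1 ExE, 8 of 9 rose, where 0.973% of all genes were called, with a median of 6.3 against -0.01 over all genes. The largest rises were Peg10 at 7.95 ± 0.59, Sgce at 6.35 ± 0.48 and Kcnq1ot1 at 6.33 ± 0.63 (edgeR adjusted p = 2.41e-09, 4.71e-10 and 6.49e-08). Mean maternal shares of these genes ran from 37.6% to 61.3% in Dnmt1 epiblast, with Impact at 47.6% and 5 of 9 genes above it. In wild-type BDF1xCAST ExE the others had a median share of 1.26%, and only Inpp5f, which is imprinted in 1 of its transcripts, stood above Impact, at 46.7% ± 11.3 (SD, n = 7). Whether Impact differs from each of these genes in its wild-type ExE share was not tested.

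**Figure D3:**
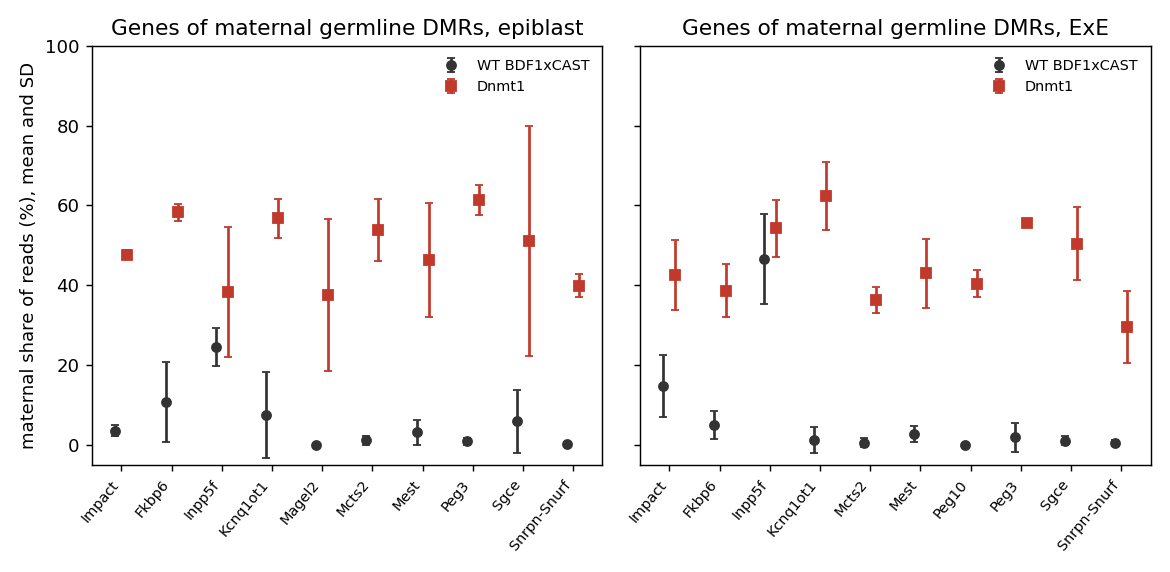
Mean maternal share (%, with SD) of Impact and other genes of maternal germline DMRs in wild-type BDF1xCAST (black circles) and Dnmt1 libraries (red squares), epiblast left and ExE right, for genes that reached 10 reads in 3 or more libraries of both groups. Every gene drawn has its Dnmt1 mean above its wild-type mean, and Impact starts at 3.48% in epiblast and at 14.8% in ExE.

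Plagl1 reads in Dnmt1 embryos were mostly maternal, the reverse of the wild type. In epiblast 12 of 20, 12 of 17 and 5 of 6 reads were maternal in replicates 1 to 3, which pools to 29 of 43 (67.4%, exact 95% interval 51.5 to 80.9). In ExE, in the libraries labelled Dnmt1, 4 of 4, 8 of 9 and 3 of 5 were maternal, or 15 of 18 (83.3%, exact 95% interval 58.6 to 96.4). The pooled intervals lie above those of the wild-type BDF1xCAST reads, 7.74 to 34.3 in epiblast and 1.12 to 29.2 in ExE. They cover counting error only and leave out the spread between embryos. The test of the ratio across libraries did not pass at these counts: without the filter on low reads, the log2 ratio differed by 3.20 ± 1.25 in epiblast and 4.96 ± 1.78 in ExE (SE, edgeR adjusted p = 0.64 and 0.357).

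Maternal Plagl1 reads rose in Dnmt1 epiblast by 3.44 ± 0.94 (SE, edgeR adjusted p = 0.0303, 9.75% of genes called), from 0.603 ± 1.12 CPM (SD, n = 7) to 5.63, 10.5 and 3.36 CPM in replicates 1 to 3, and all 3 libraries lay above the highest wild-type one. The call was lost without any 1 of the 3 replicates (adjusted p 0.0726 to 0.157). In epiblast, 10 reads were reached in 2 of 3 Dnmt1 and 1 of 7 wild-type libraries. These counts are not the filter's own measure. The deepest Dnmt1 epiblast library held 2132807 reads, against 3028267 in the wild type, so depth does not account for them. Plagl1 probably passed the filter mainly through the Dnmt1 group. Without the filter on low counts, maternal reads in the libraries labelled Dnmt1 ExE rose by 3.97 ± 1.14 (SE, edgeR adjusted p = 0.0177, 7.27% of 16864 genes called), a call that was lost without replicate 2 (adjusted p = 0.177). Paternal reads did not pass in either tissue (0.39 ± 0.84 and -1.13 ± 1.16, edgeR adjusted p = 0.832 and 0.6). Total Plagl1 in Dnmt1 epiblast was 9.38, 14.9 and 4.03 CPM against 0 to 4.57 CPM, and the difference of 1.72 ± 0.68 did not pass (SE, edgeR adjusted p = 0.109), although it did when the tissue's 5 BDF1xCAST groups shared 1 fit (0.0373). In ExE the total of 3.15 ± 1.83 CPM (SD, n = 3) did not differ beyond the test (1.26 ± 0.78, edgeR adjusted p = 0.346).

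Impact fell in epiblast after disruption of G9a-Glp, Rnf2 or Eed, while its allelic ratio did not pass in any of the 3, so a fall of the paternal allele alone was not shown. The level in the libraries labelled G9a-Glp epiblast was 45.7 to 71.6 CPM with a median of 63.6. In Rnf2 epiblast it was 29.4 to 75.3 CPM with a median of 63.9, and in Eed epiblast 29.7 to 99.9 CPM with a median of 63.5. The wild-type BDF1xCAST libraries spanned 121 to 156 CPM, so none of the 21 knockout libraries overlapped with them. The total fell by 1.26 in G9a-Glp (SE 0.13, edgeR adjusted p = 2.79e-06), by 1.22 in Rnf2 (SE 0.19, adjusted p = 0.000199) and by 1.21 in Eed (SE 0.20, adjusted p = 0.000153). These comparisons called 34.4%, 30.9% and 35.6% of all genes, so a change of the total was common. The CASTxBDF1 wild type, with 96.9, 77.4, 164 and 84.0 CPM in embryos 1 to 4, reached lower levels than the BDF1xCAST wild type.

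Most Impact reads are paternal, and paternal Impact reads fell by 1.26 in the libraries labelled G9a-Glp epiblast (SE 0.15, edgeR adjusted p = 1.59e-06, 27.6% of genes called), by 1.31 in Rnf2 epiblast (SE 0.19, adjusted p = 6.74e-05, 23.8% called) and by 1.26 in Eed epiblast (SE 0.19, adjusted p = 3.21e-05, 27.8% called). Maternal reads differed by -1.07 ± 0.49 in G9a-Glp, 0.16 ± 0.44 in Rnf2 and -0.20 ± 0.58 in Eed epiblast and did not pass (SE, edgeR adjusted p = 0.113, 0.836 and 0.837). They stood at 2.42 ± 1.72, 5.24 ± 3.68 and 4.56 ± 4.91 CPM (SD, n = 6, 6 and 9) against 4.71 ± 1.70 (n = 7). The summed level of 5 markers of the primitive streak, the region where mesoderm forms, was 14.5 to 1185 CPM in the wild type with a median of 432, and had medians of 79.4, 54.8 and 111 CPM in the 3 knockouts, within the wild-type range. None of 4 markers tested passed in G9a-Glp, and 1 of 3 fell in each of Rnf2 and Eed, beside 34.4%, 30.9% and 35.6% of all genes called for totals. Their part in the result was not tested. Without embryos 2 and 7 of the libraries labelled G9a-Glp epiblast, in which Ehmt1 stood at or above the wild-type mean, Impact still fell by 1.25 (edgeR adjusted p = 0.000112).

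In ExE the total of Impact did not pass in these knockouts. It stood at 24.2 ± 7.77 CPM (SD, n = 8) in the libraries labelled G9a-Glp, 15.4 ± 5.62 (n = 5) in those labelled Rnf2 and 24.6 ± 7.39 (n = 10) in Eed, against 25.8 ± 14.0 (n = 7), and every group overlapped with the wild type. The differences were -0.20 ± 0.31, -0.82 ± 0.38 and -0.28 ± 0.28 (SE, edgeR adjusted p = 0.699, 0.128 and 0.441), with 15.1%, 22.2% and 40.7% of genes called. Whether the change differed between the tissues was tested directly. The ExE change was higher by 1.10 ± 0.35 in G9a-Glp and by 0.97 ± 0.36 in Eed (SE, edgeR adjusted p = 0.0543 and 0.0617), neither of which passed, and by 0.40 ± 0.41 in Rnf2 and 0.84 ± 0.49 in Dnmt1 (adjusted p = 0.65 and 0.645). The share of genes called was 0.229% for Dnmt1, 6.6% for G9a-Glp, 6.71% for Rnf2 and 15.8% for Eed. In G9a-Glp the difference passed with median-of-ratios scaling and with DESeq2 (DESeq2 adjusted p = 0.027). These fits had no term for the embryo, although epiblast and ExE shared embryos, and the difference in change was not fitted with such a term. The main fits therefore did not show a difference between the tissues for any knockout, and for G9a-Glp the outcome depended on the processing.

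Outside Dnmt1, the Impact allelic ratio passed the test only in Eed ExE. The maternal share in the libraries labelled G9a-Glp was 0.699% to 6.41% in epiblast, where 2 of 6 lay above and 2 of 6 below the wild-type range, and 7.69% to 25.9% in ExE, within it, with log2 differences of 0.15 ± 0.45 and 0.58 ± 0.36 (SE, edgeR adjusted p = 0.964 and 0.701, with 1.9% and 1.1% of genes called). In Rnf2 epiblast it was 3.06% to 15.5%, and 5 of 6 libraries lay above the wild type. The ratio differed by 1.33 ± 0.37 (SE, edgeR adjusted p = 0.131, 0.609% called), and without the filter on low reads the adjusted p was 0.000136. In the libraries labelled Rnf2 ExE, shares were 8.25%, 31.3%, 29.4%, 36.6% and 15.0%, and the difference of 0.97 ± 0.52 did not pass (adjusted p = 0.587, 0.811% called). In Eed epiblast shares ran from 0% to 16.8%, with 6 of 9 above and 3 of 9 below the wild-type range (0.95 ± 0.56, adjusted p = 0.68, 1.11% called).

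In Eed ExE the maternal Impact share was 13.8% to 34.4% with a median of 22.8%, against 6.03% to 25.9% in the wild type, and 4 of 10 libraries lay above that range. The log2 ratio rose by 1.18 ± 0.33 (SE, edgeR adjusted p = 0.037, 2.73% of genes called). The call was lost with limma (adjusted p = 0.135), with the 5 BDF1xCAST groups in 1 fit (0.0581) and without any 1 of wild-type embryos 2, 7 or 8 or Eed embryos 4, 5, 6, 7 or 8 (0.0502 to 0.142). Neither allele passed on its own, with maternal reads different by 0.83 ± 0.32 and paternal by -0.51 ± 0.29 (edgeR adjusted p = 0.0512 and 0.178). Of the other genes of maternal germline DMRs, 1 of 9 rose in Eed ExE, Sgce by 3.60 ± 0.87 (adjusted p = 0.0352), and their median log2 change was 2.34 against -0.01 over all genes. Their median was similar in the libraries labelled G9a-Glp ExE and Rnf2 ExE, at 2.11 and 2.40, where none of 9 was called. In the Eed ExE libraries the 12 decidua and blood markers summed to 3.70 to 20.6 CPM with 3 at 0, against 0.667 to 1.86 CPM with 8 at 0 in the wild type, led by Des at 7.14 CPM. Of 9 ExE markers, 6 fell and none rose in total reads, where 40.7% of all genes were called. Their sum was 484 to 933 CPM against 810 to 1564. The part of these markers in the result was not tested. The difference between tissues in the allelic change did not pass for G9a-Glp, Rnf2 or Eed (0.48 ± 0.54, -0.33 ± 0.71 and 0.29 ± 0.61, edgeR adjusted p = 0.91, 0.981 and 0.962, with 0.337%, 0.312% and 0.89% of genes called).

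Plagl1 rose in Rnf2 and Eed epiblast, where Impact fell, and in Eed ExE. It passed the filter on low counts there, but not in the G9a-Glp comparisons, which had the same wild-type libraries. Whether it was tested therefore depended on the knockout libraries. In epiblast, 10 reads were reached in 6 of 6 Rnf2 and 9 of 9 Eed libraries, against 1 of 7 in the wild type. In ExE 8 of 10 Eed libraries reached them, against 1 of 7. These counts are not the filter's own measure, and they rise with depth. Rnf2 epiblast libraries held 5549733 to 17653087 reads, against 1311863 to 3028267 in the wild type. For Rnf2 the counts therefore do not separate level from depth. In Rnf2 epiblast the Plagl1 level was 4.87 to 11.8 CPM with a median of 9.02, and all 6 libraries lay above the wild-type maximum of 4.57 CPM. The total rose by 1.79 ± 0.47 (SE, edgeR adjusted p = 0.00916), which is 3.45-fold, where 30.9% of all genes were called. In Eed epiblast it was 3.99 to 11.8 CPM with a median of 7.58, and 8 of 9 libraries lay above. The total rose by 1.56 ± 0.43 (SE, edgeR adjusted p = 0.00724), which is 2.95-fold, where 35.6% of all genes were called. In Eed ExE the level was 3.13 to 12.8 CPM with a median of 5.57, against 0.329 to 4.00 CPM in the wild type, and 8 of 10 libraries lay above. It rose by 2.44 ± 0.48 (SE, edgeR adjusted p = 0.000373), which is 5.43-fold, where 40.7% of all genes were called. Wild-type embryo 6 alone held 12 of the 22 wild-type ExE reads, and without it the rise was 3.27 (adjusted p = 1.66e-05), a fold larger by over 1.5 times. In Eed ExE the decidua and blood markers summed to a median of 11.7 CPM against 1.32 CPM in the wild type, 6 of 9 ExE markers fell, and 2 of 3 visceral endoderm markers tested rose; their part in the result was not tested.

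Most Plagl1 reads in these groups were paternal, and paternal Plagl1 reads rose by 2.01 ± 0.48 in Rnf2 epiblast, by 1.78 ± 0.43 in Eed epiblast and by 2.43 ± 0.48 in Eed ExE (SE, edgeR adjusted p = 0.00479, 0.00289 and 0.000332), where 23.8%, 27.8% and 33.3% of genes passed. These fits took the genes that passed the filter of the totals, so the limit given above for Plagl1 holds here too. In 3 alternative fits per group, no filter on low counts among them, the paternal calls were kept. Their highest edgeR adjusted p was 0.00493, 0.00475 and 0.000803. Maternal reads did not pass in any of the 3 groups (0.29 in Rnf2 epiblast, 0.12 in Eed epiblast and 2.16 in Eed ExE, edgeR adjusted p = 0.89, 0.943 and 0.172). Without the filter on low reads, the allelic ratio differed by -2.28 ± 1.05, -1.83 ± 1.07 and -0.90 ± 2.25 and did not pass either (SE, edgeR adjusted p = 0.962, 1.0 and 1.0), so no difference between the alleles in their rise was shown. The pooled maternal share was 5.94% in Rnf2 epiblast (29 of 488 reads, exact 95% interval 4.02 to 8.42), 7.14% in Eed epiblast (12 of 168, 3.75 to 12.1) and 9.64% in Eed ExE (19 of 197, 5.91 to 14.7). Single embryos held most of the maternal reads, with 20 of 29 in Rnf2 epiblast embryo 3 and 13 of 19 in Eed ExE embryo 1. Mean totals in Dnmt1, Rnf2 and Eed epiblast were 9.43 ± 5.43, 8.33 ± 2.88 and 7.84 ± 2.56 CPM (SD, n = 3, 6 and 9), with most reads maternal in the first and paternal in the other groups; these groups were not tested against each other.

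**Figure D4:**
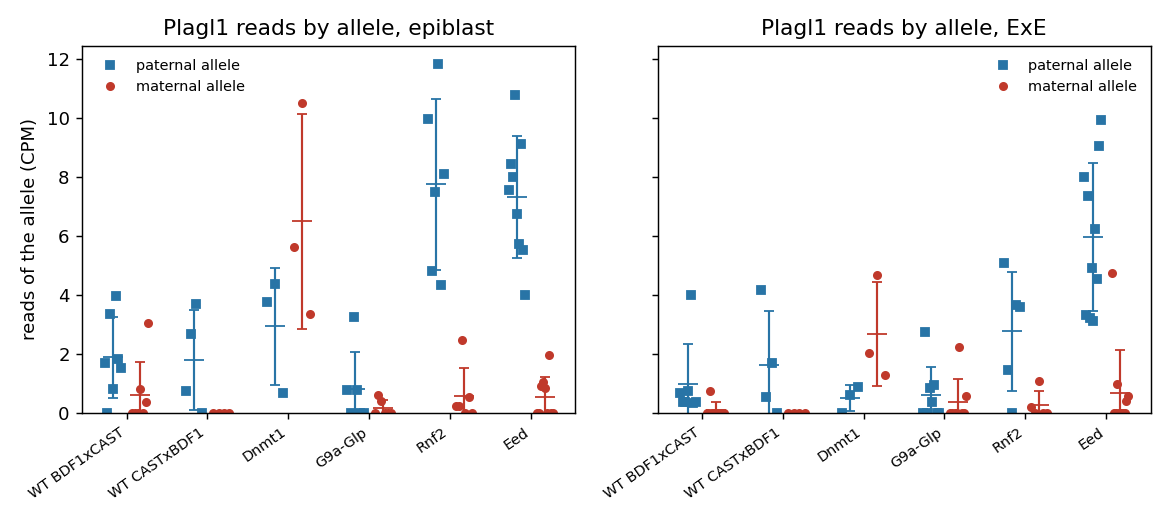
Plagl1 reads assigned to the paternal allele (blue squares) and to the maternal allele (red circles) in CPM, per library, with group mean and SD, for epiblast (left) and ExE (right). Red circles are the higher ones in Dnmt1 libraries, up to 10.5 CPM, and blue squares are the higher ones in Rnf2 and Eed epiblast and in Eed ExE, up to 11.8 CPM.

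In the remaining groups Plagl1 was too low for the main filter. The libraries labelled G9a-Glp had 0.968 ± 1.37 CPM (SD, n = 6) in epiblast and 0.956 ± 1.12 (n = 8) in ExE, with 14 and 18 reads in all. Without the filter the differences were -1.31 ± 0.80 and -0.30 ± 0.78 (SE, edgeR adjusted p = 0.251 and 0.822). Of the 18 ExE reads 8 were maternal, 6 of them in embryo 7. The libraries labelled Rnf2 ExE had 5.30, 1.46, 1.08, 3.66 and 3.57 CPM, with 4 of 124 reads maternal (3.23%, exact 95% interval 0.886 to 8.05), and the total differed by 1.45 ± 0.56 (adjusted p = 0.0827). Whether the change of Plagl1 differed between tissues was tested without a term for the embryo and did not pass in any knockout (edgeR adjusted p = 0.942, 0.787, 0.891 and 0.373 for Dnmt1, G9a-Glp without the filter, Rnf2 and Eed).

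Ordered by mean level, Impact ran from Dnmt1 epiblast (154 CPM) over the wild-type epiblasts (138 and 106), the Eed, G9a-Glp and Rnf2 epiblasts (65.9, 61.0 and 59.7) and Dnmt1 ExE (52.7) to the other ExE groups (25.8 to 15.4 CPM). Each group overlapped with its neighbour in this order. By mean maternal share the order was Dnmt1 epiblast and ExE (47.6% and 42.5%), the other ExE groups (26.2% to 14.8%) and the other epiblasts (8.45% to 2.39%), again with overlapping neighbours. Plagl1 was highest in Dnmt1, Rnf2 and Eed epiblast and in Eed ExE (9.43 to 6.64 CPM) and at 3.15 CPM or lower in the other groups.

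Genes of the GCN2 pathway, on which IMPACT acts, gave calls in both directions, and in Dnmt1 epiblast, Rnf2 epiblast and Eed ExE the share called was close to that of all genes. Of 29 in the table, 19 to 22 were tested for their total in each comparison. In epiblast 7 rose and 5 fell in G9a-Glp, 2 rose and 4 fell in Rnf2, and 5 rose and 4 fell in Eed, of 19, 20 and 19 tested, where 34.4%, 30.9% and 35.6% of all genes were called. Their medians were 0.12, 0.07 and 0.00 beside 0.01, -0.00 and 0.01 over all genes. In ExE 5 rose and 1 fell of 22 in Dnmt1 (18.5% of all genes called), 1 rose and 1 fell of 20 in G9a-Glp (15.1%), 1 rose and 2 fell of 20 in Rnf2 (22.2%), and 6 rose and 3 fell of 22 in Eed (40.7%). Sesn2, a stress-induced inhibitor of the growth kinase mTORC1, rose by 1.60 ± 0.51 in the libraries labelled G9a-Glp epiblast, 1.74 ± 0.53 in Rnf2 epiblast and 1.97 ± 0.44 in Eed epiblast (SE, edgeR adjusted p = 0.0217, 0.0208 and 0.00156). It also rose in all 4 ExE comparisons, where the Impact total did not pass, by 2.42 in Dnmt1, 2.54 in G9a-Glp, 1.41 in Rnf2 and 1.91 in Eed (adjusted p = 0.000676, 0.000126, 0.0105 and 0.00268). Aldh1l2, a mitochondrial folate enzyme, fell by 2.97 and 2.72 in G9a-Glp and Rnf2 epiblast (adjusted p = 0.00288 and 0.00445). Atf3, a stress-response transcription factor, rose by 5.34 ± 0.64 in Eed ExE, with Cebpb, another one, at 3.25 ± 0.53 (adjusted p = 1.68e-06 and 5.28e-05). In Dnmt1 epiblast 2 rose and 1 fell of 22 (14.1% of all genes called): Gcn1l1, the GCN1 that IMPACT binds, rose by 1.11 ± 0.30 and Atf4, the effector of the pathway, by 1.09 ± 0.30, while Eif2s2, an eIF2 subunit, fell by 1.41 (SE 0.25, adjusted p = 0.025, 0.0271 and 0.00273). These calls were not confined to Dnmt1 epiblast. Gcn1l1 also rose by 0.99 and 0.66 in G9a-Glp and Eed epiblast and by 0.78 in Dnmt1 ExE (adjusted p = 0.00282, 0.0359 and 0.0378). Atf4 rose by 0.79 in G9a-Glp epiblast (0.0179). Eif2s2 fell by 1.18, 0.56 and 0.90 in G9a-Glp, Rnf2 and Eed epiblast (0.000126, 0.0176 and 0.00417). It fell by 0.99 and 0.71 in Dnmt1 and Eed ExE (0.0116 and 0.0152).

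Genes proposed to act with Plagl1 gave more rises than falls in most comparisons. Of 19 in the table, 8 rose and 2 fell among 15 tested in Rnf2 epiblast (median 0.94), 7 rose and 2 fell among 14 in Eed epiblast (0.29), and 9 rose and 1 fell among 14 in Eed ExE (1.03), beside medians of -0.00, 0.01 and 0.02 over all genes, of which 30.9%, 35.6% and 40.7% were called. H19, a growth-restraining noncoding RNA, rose by 3.14 ± 0.52 in Rnf2 epiblast and 2.49 ± 0.67 in Eed epiblast (SE, edgeR adjusted p = 0.000368 and 0.00898). Cdkn1a, a cell cycle inhibitor, rose by 1.98 ± 0.27 in Eed epiblast and by 4.78 ± 0.58 in Eed ExE (adjusted p = 2.4e-05 and 5.47e-06). It also passed where the Plagl1 total did not, rising by 2.17 and 1.54 in Dnmt1 epiblast and ExE (adjusted p = 0.00215 and 0.0112). The rise was 1.18 and 3.735 in the libraries labelled G9a-Glp epiblast and ExE, and 2.15 in those labelled Rnf2 ExE (0.034, 2.32e-06 and 0.000439). Dlk1, a growth regulator, rose by 4.00 ± 0.56 in Eed ExE (adjusted p = 8.94e-06). Of the listed genes, 4 rose and 1 fell among 11 tested in G9a-Glp ExE (15.1% of all genes called). In the libraries labelled Rnf2 ExE, 4 rose and 0 fell of 11 (22.2%). As many rose as fell in G9a-Glp epiblast, 2 and 2 of 13 (34.4%), and in Dnmt1 ExE, 2 and 2 of 11 (18.5%). In Dnmt1 epiblast, where the Plagl1 total did not pass, 5 rose and 2 fell of 14 (14.1% of all genes called), with Grb10, an insulin signalling adaptor, at -3.56 ± 0.38 and Meg3, a noncoding RNA of the Dlk1 region, at 1.81 ± 0.24 (adjusted p = 0.000163 and 0.000539). Several of these genes are themselves imprinted or are in the list of maternal germline DMRs. In the PLAG family, Plag1, the growth-promoting relative of Plagl1, fell by 1.26 in Rnf2 epiblast and by 1.03 in Eed epiblast (SE 0.35 and 0.33, adjusted p = 0.013 and 0.0181).

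Of 15 factors that act on imprints, 14 were tested in Dnmt1 epiblast, and Dnmt1 itself fell by 2.27 (SE 0.30, edgeR adjusted p = 0.000539) while Atrx, a chromatin remodeller, rose by 1.19 ± 0.20 (adjusted p = 0.002). None of 13 passed in the libraries labelled Dnmt1 ExE. Of all genes, 14.1% were called in Dnmt1 epiblast and 18.5% in Dnmt1 ExE. In epiblast 3 rose and 2 fell of 14 in G9a-Glp, 3 rose and 4 fell of 14 in Rnf2, and 3 rose and 2 fell of 14 in Eed, beside 34.4%, 30.9% and 35.6% of all genes called. In ExE 1 rose and 3 fell of 13 in G9a-Glp, none rose and 6 fell of 13 in Rnf2, and 2 rose and 7 fell of 14 in Eed, beside 15.1%, 22.2% and 40.7%. In Rnf2 and Eed epiblast Dppa3, a protein that shields maternal methylation in the zygote, rose by 4.19 ± 0.47 and 3.18 ± 0.35 (adjusted p = 1.32e-05 and 3.83e-06), and in Eed ExE by 4.05 ± 0.63 (5.28e-05). Dnmt3b, a de novo DNA methyltransferase, fell by 1.21 in the libraries labelled Rnf2 ExE and by 1.65 in Eed ExE (adjusted p = 0.000206 and 2.31e-06).

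Few genes near the members had enough reads to test. Of 11 genes within 500000 bases of Impact, 1 to 3 were tested in each comparison. Ttc39c and Lama3 rose in total reads in the libraries labelled G9a-Glp ExE (1.01 and 2.62, edgeR adjusted p = 0.0396 and 0.000351), Ttc39c also rose in maternal ratio there (2.28, adjusted p = 0.0123), and no other call was made. Osbpl1a, a lipid-binding protein gene 21075 bases from Impact, had a pooled maternal share of 30.3% in BDF1xCAST and 42.0% in CASTxBDF1 epiblast and 41.8% in Dnmt1 epiblast. Of 13 genes near Plagl1, 4 to 7 were tested. None changed in allelic ratio. Utrn, a relative of dystrophin, rose in total reads by 0.60 in Eed epiblast and by 0.93 in Eed ExE (edgeR adjusted p = 0.0218 and 0.00736). Pex3, a peroxisome assembly gene, fell by 1.27 in Dnmt1 epiblast and by 0.60 in the libraries labelled G9a-Glp epiblast (adjusted p = 0.00464 and 0.0154). Ltv1 rose by 1.2 in the latter (adjusted p = 0.0138), and Sf3b5 fell by 0.58 in the libraries labelled Dnmt1 ExE (adjusted p = 0.0339). Over all genes tested, these comparisons called from 14.1% to 40.7% for totals and from 0.609% to 2.73% for the allelic ratio.

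The genes whose mean maternal share over the 12 groups correlated most with that of Impact, among 6331 genes, were Mest (r = 0.887), Peg3 (0.879), Kcnq1ot1 (0.853), 1600014C10Rik (0.848) and Lamtor1 (0.841). For Plagl1 they were Peg3 (0.909), Bcap29 (0.907), Sgce (0.895), Kcnq1ot1 (0.888) and Tln2 (0.883). In log2(CPM + 1) over 72 libraries, the closest to Impact were Trove2, Spin1, Pafah1b2, Atad2 and Snhg14 (r from 0.865 to 0.845), and the closest to Plagl1 were Igdcc3, 4930447C04Rik, Map7d2, Moxd1 and Gnai1 (0.755 to 0.68). These are descriptions: the points share tissue and differ in depth, and Plagl1 shares rest on few reads.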

How the data were processed

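Epiblast and ExE RNA of single E6.5 embryos was sequenced with SMART-Seq v4 and Nextera XT, per the labels' protocols. Per the file headers, the deposited values are a raw count per gene and library of reads over polymorphisms, the allelic ratio, a score equal to the CAST share minus 0.5, and an allelic score, the -log10 of a binomial p. In the values, the ratio is rounded and the score is signed by strain and 0 under 10 reads. Filters and strand of counting are not given in the sources used here. Tools listed in the submitters' processing notes are STAR 2.5.0 and HTSeq, with build mm10 and no roles given. Maternal reads were recovered as the whole number that fitted ratio and score (99.97% of scored values within 0.001), or from the rounded ratio at the score's limit (7.48% of reads).

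Ratios were tested with edgeR 4.0.16 on maternal and paternal counts, with a term per library, over autosomal genes that reached 10 reads in 3 or more libraries per group. Totals were scaled by TMM after edgeR's default expression filter, and reads of 1 allele used the scaling of the totals. Tests were two-sided, Benjamini-Hochberg adjusted over all genes. Alternatives were limma 3.58.1 (log2 ratio with 0.5 added to each count), DESeq2 1.42.0, other filters and scaling, joint fits, blocks and leaving out libraries. R was 4.3.3. Scripts were tested on simulated data. The 29557 autosomal genes of 30546 entered ratio tests, and 0 columns of the table were left over. Replicates are embryos, numbered by the embryo label. Epiblast and ExE with the same embryo label were taken as 1 embryo; for Eed embryos 8, 9 and 10 the numbers in the sample titles pair the tissues differently, and the embryo label was used. Deviations from the group means of same-embryo tissues correlated from -0.482 to 0.41 over 31 pairs, 17 above 0.1, and 20 correlated best with their own embryo. Starts in the table count from 0 and are printed 1-based. The G9a-Glp ExE bisulfite sample was not analysed here. Members and gene lists were chosen with earlier results of these data known. Genes named beside the members were the 5 closest by correlation, neighbours within 500000 bases, and up to 3 members of a list with the largest change among those past the threshold; others, such as Osbpl1a and the markers, were named after their values were seen.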

Additional observations from a re-analysis of the deposited data

Results flagged for a closer look

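Among groups of 4 to 10 libraries, 3 single values stood apart from the rest of their group by more than Dixon's 95% limit allows, out of 30 series of values tested, where chance flags about 1 in 20. Impact in Rnf2 epiblast embryo 6 stood at 29.4 CPM, below the 60.3 to 75.3 CPM of the other 5 libraries. Plagl1 in the library labelled G9a-Glp epiblast embryo 3 stood at 3.67 CPM (9 reads), against 0 to 0.774 CPM in the other 5. Plagl1 in wild-type BDF1xCAST ExE embryo 6 stood at 4.00 CPM (12 reads), against 0.329 to 1.08 CPM in the other 6.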

How the results depend on the processing

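For 90 results, 502 alternative fits were made, of which 468 kept the direction and the side of the threshold. Calls of the large Impact changes (ratio and maternal reads in Dnmt1 epiblast, totals in G9a-Glp, Rnf2 and Eed epiblast) and of Plagl1 totals in Eed did not change under any alternative run. Other changes follow, as log2 values with adjusted p; the cause was not tested. With limma, the Impact ratio was 2.21 (p 0.0575) in Dnmt1 ExE, 1.00 (0.135) in Eed ExE and -0.013 (0.995) in G9a-Glp epiblast. Without embryos 2 and 7 the last was -0.33 (0.901). Without a filter on low reads it was 1.33 (0.000136) in Rnf2 epiblast, and its difference between tissues in Dnmt1 was -2.38 (4.19e-05). With all groups in 1 fit, Plagl1 total in Dnmt1 epiblast was 1.77 (0.0373), Impact paternal reads in Rnf2 ExE -1.01 (0.0375) and the Impact ratio in Eed ExE 1.18 (0.0581). The change of Impact total between tissues in G9a-Glp was 1.13 (0.049) with median-of-ratios scaling and 1.13 (0.027) with DESeq2. Leaving out 1 library at a time gave, for Plagl1 maternal reads, 2.93 to 3.72 in Dnmt1 epiblast, 3.34 to 4.30 in Dnmt1 ExE and -0.70 to 0.92 in Rnf2 ExE; for Plagl1 paternal reads in Rnf2 ExE, 1.18 to 1.75 (p 0.0271 to 0.239); for Impact paternal reads in Dnmt1 ExE, -0.32 to 0.51, maternal reads in Rnf2 ExE, -0.35 to 0.38, total in Eed ExE, -0.44 to 0.0065, and ratio in Eed ExE, 0.97 to 1.34 (p 0.0156 to 0.142).

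Knockout and wild type share only numbers: deviations of same-numbered libraries correlated from -0.356 to 0.344 over 39 pairs, 10 above 0.1, and 7 libraries correlated best with their own number. With the replicate block, Impact total in Dnmt1 ExE was 1.01 (0.00205), Plagl1 total in Rnf2 epiblast 1.70 (0.114), the Impact ratio in Eed ExE 1.21 (0.076), and its difference between tissues -2.44 (0.0312) in Dnmt1 and 0.11 (0.995) in Rnf2. The block changed no other call of these results.

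Counts of genes called over all alternatives but single left-out libraries ranged, for the ratio, in Dnmt1 epiblast from 29 to 107 (main 72) and ExE from 34 to 127 (75), in Rnf2 epiblast from 25 to 145 (56) and ExE from 29 to 234 (73), in G9a-Glp from 93 to 213 (165) and 57 to 138 (96), and in Eed from 41 to 178 (100) and 199 to 384 (245). For totals they ranged in Dnmt1 from 1042 to 2268 (1446) and 1645 to 2166 (1807), G9a-Glp 2331 to 4056 (3286) and 1377 to 2220 (1392), Rnf2 1116 to 4078 (3131) and 496 to 2574 (2112), and Eed 1924 to 4490 (3500) and 3420 to 5550 (4098). Median-of-ratios scaling moved the median of all genes by at most 0.03 in size. Leaving out 1 Dnmt1 library lowered the count for totals to 664 to 972 in epiblast and 597 to 1052 in ExE. Depth limited Plagl1, whose wild-type libraries held 0 to 14 reads each.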
